A study of Homo sapiens with 4 samples.

Results

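A set of 10 long noncoding RNA (lncRNA) genes that recur in the cancer literature was followed through the knockdown of UBXN1 in MHCC97H cells, an established human hepatocellular carcinoma (HCC) line. They were MALAT1, NEAT1, H19, TUG1, MEG3, HULC, KCNQ1OT1, PVT1, NORAD and OIP5-AS1. These genes were taken by name, by a rule that uses no measured value, and all 10 had a row among the 61541 gene rows of the deposited table, of which 17658 were lncRNA genes in the GENCODE v44 annotation. TUG1 is annotated there as protein-coding and the other 9 as lncRNA genes.

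Long noncoding RNAs are transcripts that act without being translated, and the genes followed here do so in different ways. MALAT1 and NEAT1 are nuclear RNAs that localise to nuclear speckles and build paraspeckles. H19, KCNQ1OT1 and MEG3 are imprinted genes, expressed from 1 parental copy, that share their loci with imprinted protein-coding genes. NORAD and OIP5-AS1 act mainly in the cytoplasm, where they bind proteins or a microRNA, while PVT1 lies beside MYC, and HULC was named for its high level in liver cancer.

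The study asked which genes UBXN1 regulates in HCC cells and compared MHCC97H cells carrying the control hairpin shCon (2 libraries, called shRFP in the methods) with cells carrying shUBXN1 (2 libraries). UBXN1 encodes a ubiquitin-binding cofactor of the segregase VCP. By the study's methods the hairpins were delivered by lentivirus from the pLKO vector, so both groups consist of infected cells. No time after infection is given, no rescued cells are among the 4 libraries, and which UBXN1 hairpin was used is not given in the sources used here. The labels give replicate numbers but do not say whether the libraries came from separate cultures, so the p-values measure only the spread between these libraries, which may be technical.

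Each library held between 23373700 and 27380508 counts, in which a count of 3 corresponds to between 0.113 and 0.128 CPM (counts scaled to library size by the TMM method). The targeted gene followed the labels: the shCon libraries held 1788 and 1817 counts of UBXN1 and the shUBXN1 libraries 416 and 433 (log2 fold change -2.03, SE 0.0963, adjusted p = 9.98e-10). SE stands for standard error, and adjusted p-values, here and below, come from the quasi-likelihood test of edgeR, corrected by the Benjamini-Hochberg method over the 16863 genes tested. Of 4 epithelial markers, 3 had a mean above 10 TPM (transcripts scaled to length and depth, a level per unit of gene length). The keratin genes KRT8 and KRT18 were abundant, whereas EPCAM had a mean at or under 1 TPM. CDH1 had 6.06 and 5.98 TPM in shCon and 14.53 and 13.85 TPM in shUBXN1. Only 2 of 10 hepatocyte markers, HNF4A and SERPINA1, had a mean above 10 TPM, and APOA2 was at 0 in 3 of the 4 libraries. The summed hepatocyte markers stood at 78.8 to 80.2 TPM in shCon and at 49.1 to 51.5 TPM in shUBXN1. None of the 4 blood or 4 fibroblast markers reached that mean, and of the 3 endothelial markers PECAM1 did. Counts on mitochondrial genes took 5.28% and 5.59% in shCon and 7.43% and 8.27% in shUBXN1. The part of these shifts in the values below was not tested, and in bulk RNA fewer cells of a kind and less RNA per cell cannot be told apart.

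Levels were first compared between the 10 lncRNA genes per unit of length. MALAT1 was the highest of the 10 in each library, with 522.5 and 495.4 TPM in shCon and 651.9 and 543.5 TPM in shUBXN1. NORAD came second in each library, at 167 ± 10.4 TPM in shCon and 155 ± 15.5 TPM in shUBXN1 (SD, n = 2). PVT1, H19 and TUG1 formed the next group. In shCon they stood at 54.98 ± 0.665, 47.4 ± 3.81 and 47.7 ± 2.17 TPM (SD, n = 2), so that H19 and TUG1 differed by less than their spread. In shUBXN1 PVT1 (73.2 ± 15.7 TPM) and H19 (70.8 ± 9.86 TPM) differed by less than their spread, and both stood above TUG1 (39.8 ± 4.49 TPM, each SD, n = 2). NEAT1 followed at 25.2 ± 0.801 TPM in shCon and 20.8 ± 9.70 TPM in shUBXN1 (SD, n = 2).

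The remaining genes were low per unit of length. OIP5-AS1 averaged 1.75 TPM over the 4 libraries, KCNQ1OT1 0.670 TPM and HULC 0.343 TPM. For MEG3 the shCon libraries held 1 count each and the shUBXN1 libraries 3.31 and 0, at or about the level of 3 counts per library, so no fold change was computed for it. The imprinted neighbour of MEG3, DLK1, had 0 counts in each library. TPM rests on the gene length in the deposited table, which equalled the longest GENCODE v44 transcript of NEAT1, MEG3, HULC, KCNQ1OT1, PVT1 and NORAD. For PVT1 this was 2450 bases, whereas its annotated exons together cover 25431 bases.

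**Figure D1:**
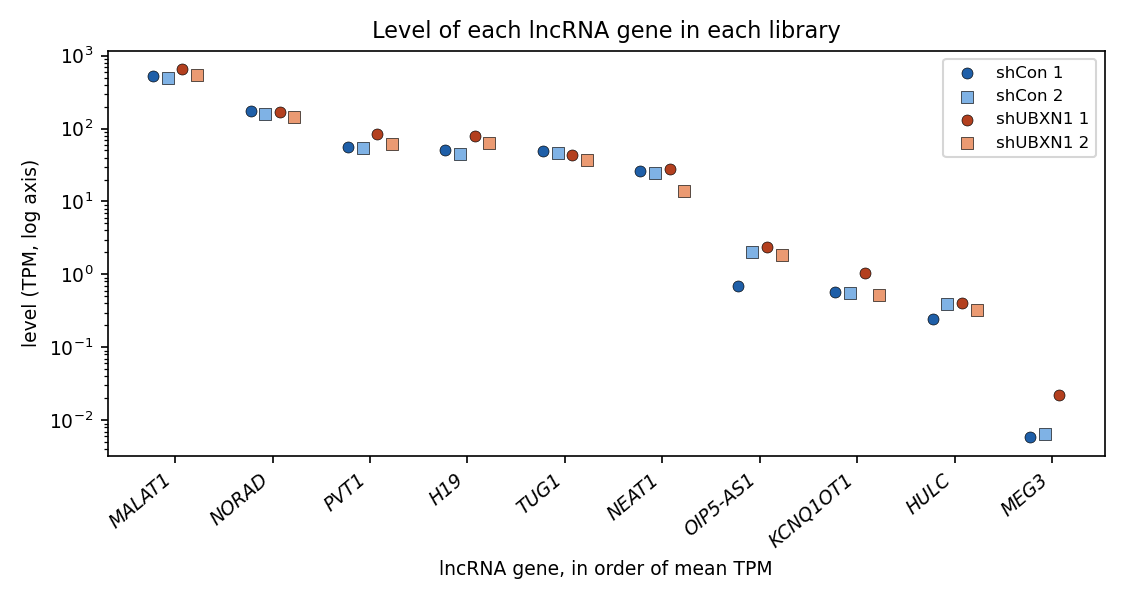
Level of each lncRNA gene in each library, in TPM on a log axis, with circles for replicate 1 and squares for replicate 2 of shCon (blue) and shUBXN1 (red). MALAT1 lies at 495.4 to 651.9 TPM and HULC below 0.5 TPM, the 2 libraries of shUBXN1 separate for NEAT1 and KCNQ1OT1, and the shUBXN1 replicate 2 value of MEG3, which is 0, is not drawn.

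After UBXN1 knockdown H19 and PVT1 rose, TUG1 fell, and none of the 10 lncRNA genes passed a fold change of 2. Of the 9 that passed the filter on low counts, these 3 had an adjusted p under 0.05, and the other 6 did not pass. The 2 genes called higher compare with 28% of all genes tested, and 20.6% of the 2417 lncRNA genes tested, that were called higher. The 1 gene called lower compares with 28.2% of all genes and 12% of lncRNA genes called lower. At a fold change of 2 with an unadjusted p under 0.05, the thresholds of the study, edgeR called 0 of the 9 in either direction, against 11.8% of all genes called higher and 6.09% called lower. Of the 9, 3 had an unadjusted p under 0.05 at any fold, and DESeq2, limma-voom and limma on log2(TPM + 1) also called 0 past that fold.

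The groups did not overlap for MALAT1, H19 and PVT1, which were higher in both shUBXN1 libraries, against 39.4% of all genes tested. They did not overlap for TUG1 and NORAD, which were lower in both, against 38.6% of all genes. Over the 9 genes the log2 fold changes had a median of 0.19, beside 0.15 over the lncRNA genes and 0.02 over all genes tested. The median size of the change, without regard to its sign, was 0.35 for the 9 genes, 0.58 over lncRNA genes and 0.44 over all genes.

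**Figure D2:**
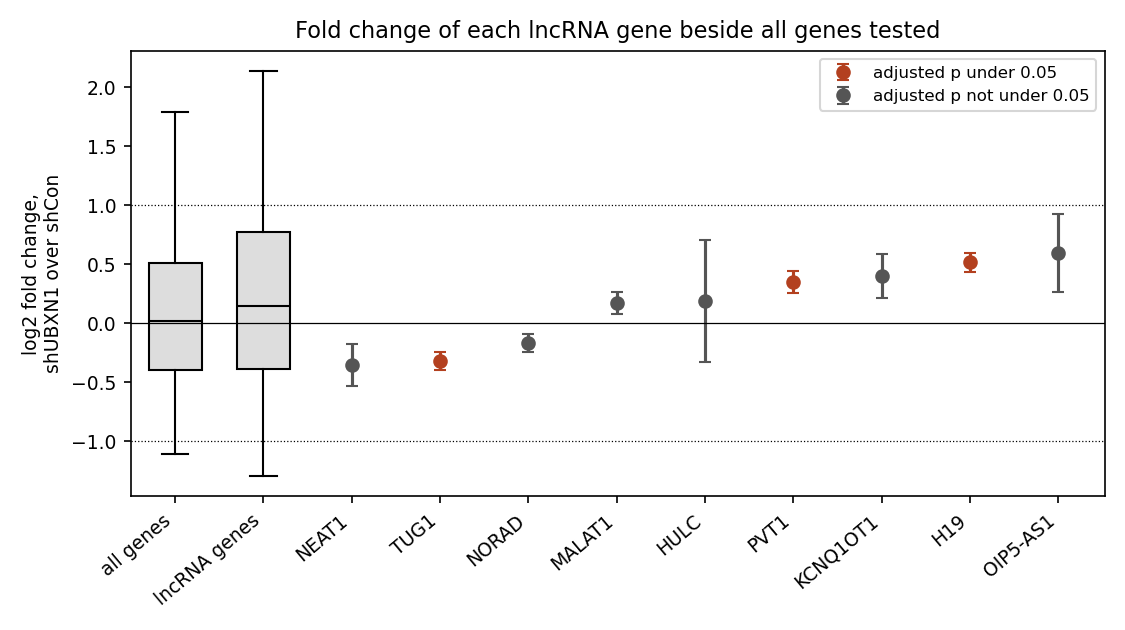
Log2 fold change (shUBXN1 over shCon) of the 9 lncRNA genes tested, as points with bars of 1 standard error, beside boxes of all 16863 genes and of the 2417 lncRNA genes tested, with the median, quartiles and whiskers at the 5th and 95th percentiles. H19 and PVT1 lie above 0 and TUG1 below it among the genes called (red), and none of the 9 crosses the dotted lines at a fold change of 2.

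MALAT1 had the highest level of the 10 genes and did not pass the test after knockdown. It is transcribed from chromosome 11 of hg38 (65497640 to 65508073, plus strand, 1 merged exon), and its CPM was 2235 and 2184 in shCon and 2618 and 2352 in shUBXN1. Both shUBXN1 libraries lay above both shCon libraries, with the difference being 0.17 on the log2 scale (SE 0.0923, adjusted p = 0.133). Without shUBXN1 replicate 2 it was 0.23 and passed (adjusted p = 5.58e-04). MALAT1 alone took 0.218% and 0.211% of all counts in shCon and 0.277% and 0.236% in shUBXN1, most of the share that the 10 genes took together (0.313% to 0.391%). The antisense gene annotated over 5.85% of its exon bases, ENSG00000270117, had 0 counts in each library.

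The 3′ end of MALAT1 bears on how it is captured, since the labels name an mRNA library kit, a kind that selects RNA by stretches of A, while the study's methods name another kit. The mature RNA is cut by RNase P ahead of a small tRNA-like RNA and carries an A-rich tract encoded in the genome in place of an added tail. The tract is shown with its run of 13 A in capitals, from the GENCODE transcript on hg38 at chr11:65506068-65506173, plus strand, and the last 57 bases are the annotated small RNA ENSG00000274072:
MALAT1 tract: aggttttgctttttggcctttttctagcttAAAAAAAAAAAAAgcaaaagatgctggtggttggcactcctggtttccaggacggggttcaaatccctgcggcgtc
Whether capture through this tract differed between the libraries was not tested.

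Genes for the machinery around MALAT1 mostly fell. Of the 12 genes for its end processing (subunits of RNase P, the tRNA 3′ nuclease ELAC2 and METTL16, which binds the triple helix at its end), 11 were lower and 1 was higher (91.7% and 8.33%, against 28.2% and 28% of all genes tested), with a median log2 fold change of -0.37 beside 0.02 over all genes. POP7 went from 62.2 ± 2.15 to 42.0 ± 3.85 CPM and POP5 from 37.7 ± 0.214 to 25.1 ± 1.69 CPM (SD, n = 2), while RPP14 rose from 17.6 ± 1.70 to 24.8 ± 2.26 CPM (SD, n = 2). The count of lower genes was 7 under total count scaling and 7 without shCon replicate 2. Of 22 genes for proteins of nuclear speckles, the bodies where MALAT1 accumulates, 14 were lower, 2 higher and 6 did not pass (median -0.34). The shares lower and higher were 63.6% and 9.09%, against 28.2% and 28% of all genes. The splicing factor SRSF1 went from 409 ± 1.99 to 207 ± 18.6 CPM and SRSF2 from 411.0 ± 6.25 to 249 ± 22.4 CPM (SD, n = 2). The kinase CLK1, which phosphorylates such factors, rose from 25.7 ± 1.51 to 43.9 ± 0.684 CPM, and SRSF11 from 136.0 ± 3.04 to 164.9 ± 1.25 CPM (SD, n = 2).

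NEAT1, the RNA scaffold of paraspeckles, split the shUBXN1 libraries. Its gene lies upstream of MALAT1 on chromosome 11 (65422774 to 65445540, plus strand) and gives a short polyadenylated and a long isoform, which a count per gene does not separate. Its CPM was 288.4 and 284.1 in shCon, 290.5 in shUBXN1 replicate 1 and 158.0 in shUBXN1 replicate 2. The groups overlapped, since replicate 1 matched the controls and replicate 2 alone was low. On the log2 scale the change was -0.35 (SE 0.179, adjusted p = 0.109).

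No single fold change of NEAT1 held over the libraries. Without shUBXN1 replicate 1 it was -0.86 (adjusted p = 5.13e-14) and without shUBXN1 replicate 2 it was 0.0067 (adjusted p = 0.933). Without shCon replicate 1 it was -0.34 (adjusted p = 0.0125) and without shCon replicate 2 it was -0.38 (adjusted p = 0.0337). The shUBXN1 libraries differed by 0.88 on the log2 scale, and of the 1346 genes within 1 log2 unit of its level, 1 gene differed by more.

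For the genes of paraspeckle proteins, unlike NEAT1, the groups did not overlap: all 20 listed were lower in both shUBXN1 libraries, against 38.6% of all genes. Of the 20, 19 were called lower, 0 were called higher, and TAF15 (298.5 and 314.6 CPM in shCon, 274.3 and 281.8 CPM in shUBXN1) did not pass, with an adjusted p of 0.121. The share called lower, 95%, stood beside the 28.2% over all genes, and the median log2 fold change was -0.51. HNRNPA1 had 1394 and 1422 CPM in shCon and 618.0 and 692.9 CPM in shUBXN1 (log2 fold change -1.10, SE 0.0872, adjusted p = 1.14e-07). The core paraspeckle proteins SFPQ and NONO, singled out after their values were seen, had log2 fold changes of -0.60 (adjusted p = 1e-05) and -0.36 (adjusted p = 0.00181). The share of NEAT1 RNA in paraspeckles was not measured. The flanking protein-coding gene FRMD8 had a log2 fold change of 0.02 (adjusted p = 0.871).

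H19 gave the clearest rise. This imprinted RNA, abundant in fetal liver and silenced in most adult tissue, is the precursor of miR-675 and lies on chromosome 11 (1995166 to 2004552, minus strand, 4 merged exons). Its CPM was 57.95 and 53.29 in shCon and 84.41 and 74.62 in shUBXN1. Both shUBXN1 libraries stood above both controls, a fold of 1.43 (log2 0.52, SE 0.0836, adjusted p = 1.16e-04). The call held in each of the 13 alternative settings tried, with log2 fold changes between 0.39 and 0.60.

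The microRNA arms encoded in H19 are shown because they are its best known products. They are the RefSeq mature sequences on GRCh38.p14, minus strand, at chr11:1996800-1996822 for the 5p arm and chr11:1996768-1996787 for the 3p arm, with the seed (bases 2 to 8) in capitals:
hsa-miR-675-5p: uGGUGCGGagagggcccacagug
hsa-miR-675-3p: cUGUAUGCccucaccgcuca
The seeds of the arms differ. The row of their hairpin, MIR675, had 0 counts in each library, and mature microRNAs are not captured by an mRNA library, so their level was not measured.

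The reciprocally imprinted neighbour IGF2, a growth factor gene that shares enhancers with H19, was close to undetected. It had 4 and 0 counts in shCon and 5 and 6 in shUBXN1, and did not pass the filter on low counts. On the other side MRPL23, a mitochondrial ribosomal protein gene, went from 41.8 and 40.8 CPM to 27.1 and 29.1 CPM (log2 fold change -0.56, adjusted p = 7.27e-05). Among the 3 lncRNA genes whose log2 CPM, centred on each gene's mean, lay nearest to that of H19 over the 4 libraries were DTX2P1-UPK3BP1-PMS2P11 and ENSG00000286250, at distances of 0.0965 and 0.0992 among 523 candidates. Their log2 fold changes were 0.43 and 0.55, a likeness to H19 that follows from how they were picked.

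KCNQ1OT1, the antisense RNA that silences neighbouring genes on the paternal copy of the same chromosome arm, behaved like NEAT1 in that 1 library stood apart. It is a long unspliced RNA and lies on chromosome 11 (2597308 to 2700003, minus strand), within the protein-coding gene KCNQ1 on the other strand. Its CPM was 25.8 and 25.5 in shCon, 43.8 in shUBXN1 replicate 1 and 23.7 in shUBXN1 replicate 2. Replicate 1 was high and replicate 2 lay below both controls, so the groups overlapped (log2 fold change 0.40, SE 0.189, adjusted p = 0.0867). Without shUBXN1 replicate 1 it was -0.12 (adjusted p = 0.377) and without shUBXN1 replicate 2 it was 0.76 (adjusted p = 1.61e-07). Without shCon replicate 1 it was 0.41 (adjusted p = 0.00744) and without shCon replicate 2 it was 0.37 (adjusted p = 0.0304). Of the 5218 genes at a similar level, 9 differed more between the shUBXN1 libraries. KCNQ1 itself had 9 and 5 counts in shCon and 2 and 3 in shUBXN1.

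Differences between the shUBXN1 libraries ran the same way for NEAT1 and KCNQ1OT1, both with more in replicate 1, by 0.88 each on the log2 scale. Over the 32 genes tested whose length in the deposited table exceeded 20 kb, the median log2 difference between shUBXN1 replicates 1 and 2 was 0.38, beside 0.02 in shCon. It was -0.04 over the 11744 genes of 1 to 5 kb. Over all lncRNA genes tested it was 0.17 in shUBXN1 and 0.02 in shCon. The part of transcript length in the values of NEAT1 and KCNQ1OT1 was not tested.

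**Figure D3:**
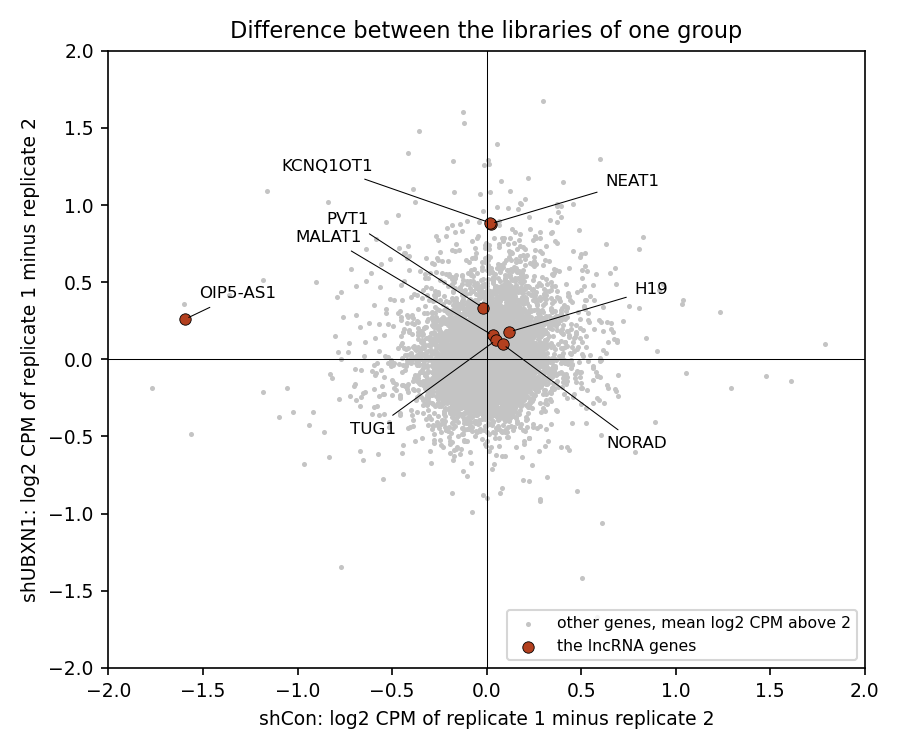
Log2 CPM of replicate 1 minus replicate 2 in shCon (horizontal axis) and in shUBXN1 (vertical axis) for the 8 lncRNA genes with a mean log2 CPM above 2 (red) and 11982 other genes above that level (grey), of which 9 lie outside the axes. NEAT1 and KCNQ1OT1 lie together at 0.88 on the vertical axis, and OIP5-AS1 lies far to the left, with 3.001 CPM in shCon replicate 1 and 9.07 CPM in shCon replicate 2.

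Protein-coding and RNA genes listed at the imprinted loci of H19, KCNQ1OT1 and MEG3 mostly did not pass the filter on low counts. Whether each listed gene is itself imprinted in these cells was not tested. Of 14 listed, 5 passed the filter, of which 3 were higher, 1 was lower and 1 did not pass (median log2 fold change 0.48). The 5 were CDKN1C, CD81, SLC22A18, PHLDA2 and TSSC4, the last of which did not pass the test. IGF2 beside H19, and DLK1 and RTL1 beside MEG3, were not among them, so the count and median do not cover those neighbours. Over all genes tested 28% were higher and 28.2% lower. The cell cycle inhibitor CDKN1C, singled out after its values were seen, had 6.34 and 6.81 CPM in shCon and 10.4 and 10.9 CPM in shUBXN1 (log2 fold change 0.69, adjusted p = 0.00132). CD81, a tetraspanin, rose from 29.98 ± 0.339 to 46.5 ± 5.53 CPM and the transporter gene SLC22A18 from 57.3 ± 1.14 to 79.8 ± 6.09 CPM (SD, n = 2). PHLDA2, a growth-restraining imprinted gene of the placenta, fell from 105 ± 10.7 to 47.6 ± 5.36 CPM (SD, n = 2), a log2 fold change of -1.15 (adjusted p = 1.62e-07).

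PVT1 rose while MYC beside it fell. PVT1 spans chromosome 8 from 127794526 to 128187101 on the plus strand, is often amplified together with MYC in cancer, and its CPM was 66.7 and 67.6 in shCon and 95.3 and 75.6 in shUBXN1. Both shUBXN1 libraries were above the controls, replicate 1 by far more than replicate 2. On the log2 scale the change was 0.35 (SE 0.0961, adjusted p = 0.00662). Without shUBXN1 replicate 1 it was 0.17 and did not pass (adjusted p = 0.0579).

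MYC, a transcription factor that drives cell growth, ends 51575 bases before PVT1. It had 216.3 and 219.2 CPM in shCon and 95.2 and 116.8 CPM in shUBXN1 (log2 fold change -1.04, SE 0.0905, adjusted p = 2.99e-07). Of the 7 genes listed for this locus, 5 were matched by name and 2 were tested, MYC itself among them. Both were called lower, against 28.2% of all genes. The other was CYRIB, a RAC1-binding protein gene further along the chromosome (292.6 ± 3.82 to 203.5 ± 22.9 CPM, SD, n = 2). GSDMC, the nearest protein-coding gene on the far side of PVT1, had between 3 and 10 counts in each library.

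TUG1 was the gene called lower. It was first described as a transcript induced by taurine in the retina and is a spliced RNA found in nucleus and cytoplasm. Its CPM was 180.7 and 174.5 in shCon and 148.0 and 135.8 in shUBXN1. Both shUBXN1 libraries were below both controls, at 0.799 times the control level (log2 fold change -0.32, SE 0.0752, adjusted p = 0.0021). Leaving out 1 library at a time gave values from -0.39 to -0.28, each past the threshold.

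TUG1 and MORC2, which encodes a chromatin-silencing ATPase, start back to back 471 bases apart on opposite strands of chromosome 22, with TUG1 at 30969245 to 30979395. MORC2 fell too, from 83.8 and 87.7 CPM to 71.1 and 72.3 CPM (log2 fold change -0.26, SE 0.0731, adjusted p = 0.0079), whereas SMTN, a smooth muscle protein gene and the next on the other side, rose from 13.1 and 14.5 CPM to 24.2 and 23.1 CPM (log2 fold change 0.78, adjusted p = 3.08e-05). The antisense genes annotated over the exons of TUG1, ENSG00000269987 and ENSG00000269972, had 0 counts. The stretch that TUG1 starts in is shown because the genes on either side of it moved the same way. It is the RefSeq promoter window on GRCh38.p14 at chr22:30969015-30969314, plus strand, 250 bases before to 50 after the start, with matches to the motifs searched in capitals:
TUG1 promoter: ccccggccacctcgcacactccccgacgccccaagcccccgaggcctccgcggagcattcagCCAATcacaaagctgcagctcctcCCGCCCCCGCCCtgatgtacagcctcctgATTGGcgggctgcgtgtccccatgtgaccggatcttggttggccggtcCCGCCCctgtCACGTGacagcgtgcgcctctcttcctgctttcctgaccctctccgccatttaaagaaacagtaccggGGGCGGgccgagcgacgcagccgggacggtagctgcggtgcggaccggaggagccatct
On both strands, the window held 1 match to CACGTG (the E-box that MYC and USF proteins can bind), 2 to CCAAT and 4 to GGGCGG, and none overlapped a match to another motif. Of the 35116 promoter windows in the RefSeq table, 7.26% held CACGTG, 34.6% CCAAT and 45% GGGCGG. No match to TATAAA, which 11.5% of all windows held, was found in it. A match describes the sequence only.

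The lncRNA genes nearest to TUG1 in pattern were COX10-DT, ENSG00000262879 and MAGI2-AS3, at distances of 0.065 to 0.094 among 524 candidates. They were picked by their values in these libraries, so their fall follows from the choice. COX10-DT had 21.2 and 21.2 CPM in shCon and 16.9 and 15.9 CPM in shUBXN1, and MAGI2-AS3 had 89.9 and 91.8 CPM in shCon and 71.8 and 66.1 CPM in shUBXN1.

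NORAD, an RNA activated by DNA damage that keeps PUMILIO proteins from their other targets, did not pass the test either. It is unspliced and lies on chromosome 20 (36045618 to 36051018, minus strand). Its CPM was 462.9 and 436.5 in shCon and 414.1 and 387.1 in shUBXN1. The groups did not overlap, but the change of -0.17 on the log2 scale (SE 0.078) had an adjusted p of 0.0833. Without shUBXN1 replicate 1 it was -0.22 and passed (adjusted p = 0.00214).

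The PUMILIO elements of NORAD are shown because it holds more of them than the other lncRNA genes. The letters TGTANATA were searched on the transcript strand of the longest GENCODE v44 transcript of each gene. NORAD held 15 in 5401 bases (2.78 per kb), against 6 in NEAT1, 9 in the 91667 bases of KCNQ1OT1, 2 in TUG1, 1 each in OIP5-AS1 and MEG3, and 0 in MALAT1, H19, HULC and PVT1. Of the 1641 canonical transcripts of 5000 to 6000 bases, 46.3% held at least 1, the median was 0, and 2 transcripts, NORAD among them, held 15 or more. The first 4 elements of NORAD in the direction of transcription, at chr20:36050185-36050208, chr20:36049806-36049829, chr20:36049705-36049728 and chr20:36049504-36049527 of hg38, minus strand, are given with the element in capitals:
NORAD element 1: aaggcctgTGTATATAatatgaaa
NORAD element 2: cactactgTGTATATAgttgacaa
NORAD element 3: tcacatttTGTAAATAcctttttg
NORAD element 4: cttatctgTGTATATAgtgtacat
PUM2, which encodes a reader of this element, rose. It had 94.97 and 90.62 CPM in shCon and 111.1 and 116.1 CPM in shUBXN1 (log2 fold change 0.29, adjusted p = 0.00356). EPB41L1, the protein-coding gene next to NORAD at higher coordinates, rose with a log2 fold change of 0.52 (adjusted p = 4.62e-05), and CNBD2 on the other side had 7 counts or fewer in each library.

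OIP5-AS1, known as Cyrano, gave a fold change that rested on 1 control library. It lies on chromosome 15 (41283958 to 41322392, plus strand). Its CPM was 3.001 in shCon replicate 1 but 9.07 in shCon replicate 2, and 9.82 and 8.20 in shUBXN1. As the plot of replicate differences shows, shCon replicate 1 was low and the other 3 libraries were alike. On the log2 scale the change was 0.60 (SE 0.327, adjusted p = 0.137). Without shCon replicate 1 it was -0.0069 (adjusted p = 0.983) and without shCon replicate 2 it was 1.57 (adjusted p = 1.71e-08).

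A protein-coding gene model that reads through from the same locus on the same strand, ENSG00000285920, held far more counts, 2372 and 2070 in shCon and 2424 and 2169 in shUBXN1. OIP5-AS1 made up 3.26% of the summed counts of both in shCon replicate 1 and 9.31%, 9.09% and 8.14% in the other libraries. The sum changed by 0.14 on the log2 scale (SE 0.0746, adjusted p = 0.12), an alternative chosen after seeing the data. The tool that divided reads between the gene models is not given for these counts. OIP5, the gene on the opposite strand after which OIP5-AS1 is named, had 13.7 and 16.7 CPM in shCon and 11.8 and 13.4 CPM in shUBXN1 (log2 fold change -0.28, adjusted p = 0.095), and CHP1, at lower coordinates, a log2 fold change of 0.01 (adjusted p = 0.948).

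OIP5-AS1 is best known for a site that pairs with miR-7 and leads to decay of that microRNA. The transcript of 8881 bases held 3 matches to the miR-7 seed, of which the second is shown beside the microRNA because its pairing extends well beyond the seed. It lies at chr15:41300574-41300599 of hg38, plus strand. Capitals mark the seed (bases 2 to 8) in the microRNA, from RefSeq, and in the site the 7 bases that pair with the seed and the 14 bases that pair with bases 11 to 24:
hsa-miR-7-5p: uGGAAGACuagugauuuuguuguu
OIP5-AS1 site 2: AACAACAAAATCACcaatGTCTTCCa
At the other seed matches the longest run that paired upstream of the seed match was 5 and 3 bases. ZSWIM8, the receptor of the ubiquitin ligase that carries out such target-directed decay, rose from 35.5 ± 1.14 to 65.0 ± 7.23 CPM (SD, n = 2), a log2 fold change of 0.87 (adjusted p = 1.45e-06). The level of miR-7 was not measured.

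Of the 12 listed partner genes of NORAD and OIP5-AS1, 8 were lower, 2 were higher (ZSWIM8 and PUM2) and 2 did not pass, with a median log2 fold change of -0.39. The share lower, 66.7%, stood above the 28.2% of all genes, and the share higher, 16.7%, below the 28% of all genes. The spliceosome-associated ubiquitin ligase PRPF19, a partner of nuclear NORAD, fell from 257.0 ± 0.856 to 121 ± 9.66 CPM and RBMX, an RNA-binding protein of the same complex, from 378.0 ± 5.50 to 221 ± 4.37 CPM (SD, n = 2).

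HULC was barely detected despite its liver cancer origin. The gene model that carries this name in GENCODE v44, ENSG00000285219, spans 858566 bases of chromosome 6 (8435568 to 9294133, plus strand) and is far wider than the original transcript. The shCon libraries held 11.35 and 16.65 counts of it and the shUBXN1 libraries 16.72 and 13.61. The groups overlapped, and the change of 0.19 on the log2 scale had a wide error (SE 0.518, adjusted p = 0.779). Without shCon replicate 1 it was -0.17 (adjusted p = 0.887). SLC35B3, which starts 7 bases from this model on the other strand, had a log2 fold change of -0.24 (adjusted p = 0.171). TFAP2A, the nearest protein-coding gene at higher coordinates, lies 1099053 bases from this model and had a log2 fold change of 0.03 (adjusted p = 0.877).

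**Figure D4:**
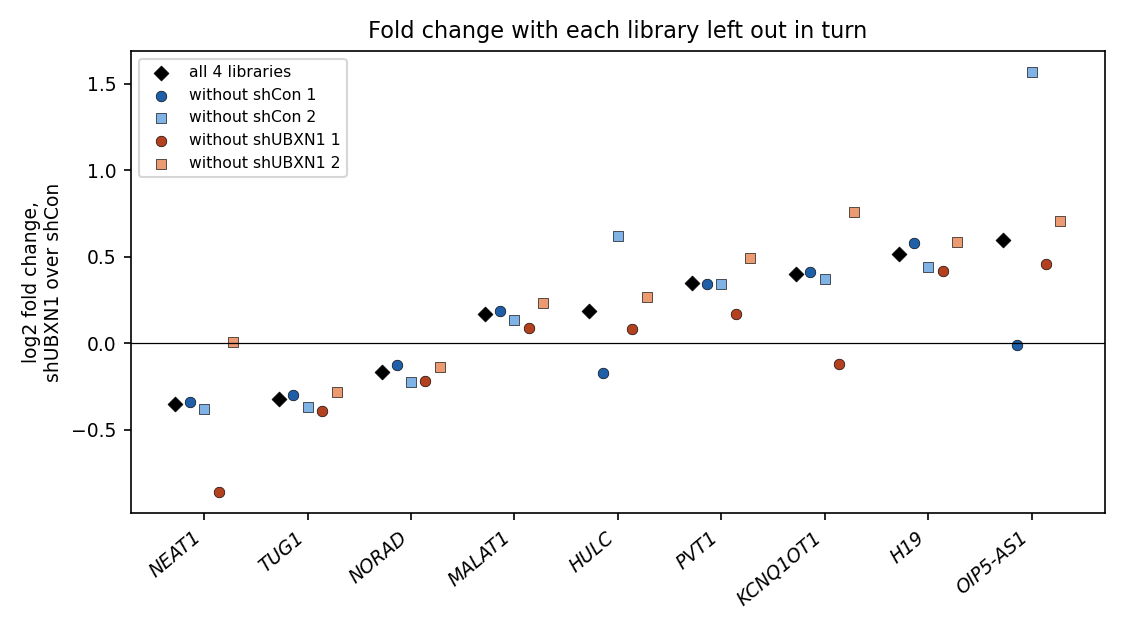
Log2 fold change (shUBXN1 over shCon) of each of the 9 lncRNA genes from all 4 libraries (diamonds) and after leaving out each library (blue for shCon, red for shUBXN1, circles for replicate 1, squares for replicate 2). H19 and PVT1 stay above 0 and TUG1 and NORAD below it, whereas NEAT1, KCNQ1OT1, OIP5-AS1 and HULC reach the opposite side of 0 without 1 library.

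The number of the 10 lncRNA genes called depended on single libraries. Leaving out 1 library at a time, between 1 and 4 were called higher and between 1 and 3 lower. Without shUBXN1 replicate 1, 1 was called higher and 3 lower, while without shUBXN1 replicate 2, 4 were called higher and 1 lower. Without shCon replicate 2, 4 were called higher, of which OIP5-AS1 alone passed a fold change of 2, and 2 lower. Without shCon replicate 1, 3 were called higher and 2 lower.

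Several of the lncRNA genes, H19, KCNQ1OT1 and MEG3 among them, have been described as binding Polycomb repressive complex 2 (PRC2), which methylates histone H3, or other chromatin enzymes. Of 16 genes for PRC2 and associated factors, 9 were lower, 3 higher and 4 did not pass, with a median log2 fold change of -0.34. These were 56.2% lower and 18.8% higher, beside 28.2% and 28% of all genes. The histone chaperone RBBP4 fell from 134.3 ± 1.73 to 47.7 ± 1.81 CPM (SD, n = 2), a log2 fold change of -1.49 (adjusted p = 1.67e-09), and the maintenance DNA methyltransferase DNMT1 from 226 ± 10.03 to 138 ± 9.54 CPM (SD, n = 2). PHF1, an accessory subunit, rose from 20.1 ± 0.161 to 43.7 ± 0.954 CPM and JARID2 from 23.8 ± 0.0193 to 37.6 ± 1.18 CPM (SD, n = 2). The catalytic subunit EZH2 and its partner SUZ12 were singled out after their values were seen. EZH2 had a log2 fold change of -0.50 (adjusted p = 4.94e-05) and SUZ12 of 0.02 (adjusted p = 0.801).

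Some other lncRNA genes known from cancer changed by more than 2-fold. Of 30 listed, 19 were tested, of which 8 were lower, 1 was higher and 10 did not pass, with a median log2 fold change of -0.28. The shares were 42.1% lower and 5.26% higher, against 12% and 20.6% of all lncRNA genes tested and 28.2% and 28% of all genes. At a fold change of 2, 4 were lower, a threshold that 6.09% of all genes passed downwards. LINC00261, an endoderm lncRNA beside the hepatic factor gene FOXA2, had 10.6 and 10.2 CPM in shCon and 1.01 and 0.384 CPM in shUBXN1 (log2 fold change -3.88, SE 0.295, adjusted p = 7.87e-08). FTX was the gene called higher (adjusted p = 0.0341), with 67.7 and 76.6 CPM in shCon, 163.1 in shUBXN1 replicate 1 and 67.0 in shUBXN1 replicate 2, so its groups overlapped and its rise lay in 1 library.

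**Figure D5:**
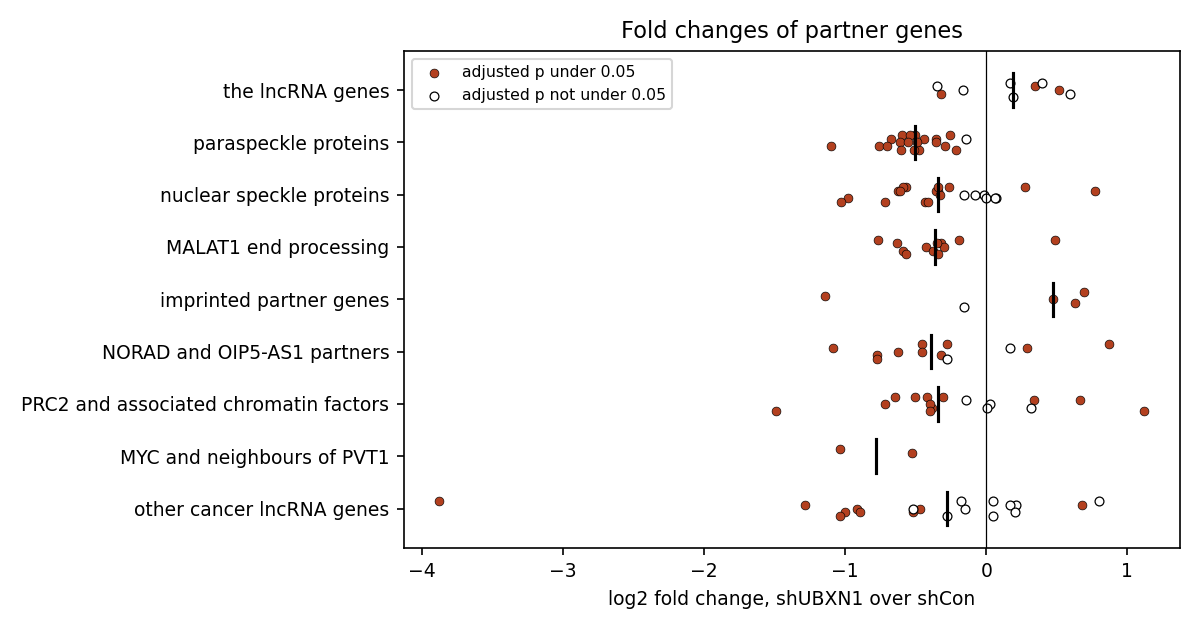
Log2 fold change (shUBXN1 over shCon) of each tested gene in the lncRNA group and in the lists of partner and related genes, filled where the adjusted p was under 0.05, with a bar at each list's median. The lncRNA genes centre on 0.19, the paraspeckle protein genes on -0.51 with 19 of 20 called lower, and LINC00261 stands apart at -3.88 among the other cancer lncRNA genes.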

How the data were processed

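RNA-seq of 4 MHCC97H libraries (2 shCon, 2 shUBXN1, grouped by title) was used. The table that the authors deposited gives expected counts for each gene without normalization, and a gene length. The labels' processing notes name GRCh37, HISAT2 2.0.4 and StringTie 1.3.0, whereas the methods name GRCh38, TPM and limma. The counting tool, annotation release and use of strand are not given in the sources used here, so overlapping genes are uncertain. Of 61541 gene IDs, 61369 matched GENCODE v44 (hg38), from which positions were taken.

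Counts were rounded, filtered with filterByExpr, scaled by TMM and tested with glmQLFTest in edgeR 4.0.16 (R 4.3.3). CPM uses TMM-scaled library sizes, and TPM the deposited lengths. A replicate block was not part of the main fit. On simulated counts of 16493 genes the test recovered 52 of 67 genes changed 1.5-fold and all 67 changed 2-fold. It called 4 unchanged genes. The simulation gave every gene the same dispersion in both groups and changed few genes, none of them at low counts. The data differ in this, so it does not measure the rate of false calls in them. Alternatives were DESeq2 1.42.0, total count scaling, limma-voom and limma on log2(TPM + 1) in limma 3.58.1, other filters, unrounded counts, a GC correction, the block and leaving out each library. A chi-square comparison of replicate counts (3.79 per degree of freedom in the controls, 8.37 after knockdown) found no copy of a library.

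The genes, lists and tests were chosen with earlier results of these data known. Named genes are the 10, UBXN1, up to 2 genes per direction with the smallest p in each list, the nearest protein-coding neighbours, IGF2, MYC, OIP5 and 3 lncRNA genes nearest in pattern to H19 and to TUG1. A few genes that this rule names are not reported here.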

Additional observations from a re-analysis of the deposited data

How the results depend on the processing

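H19 kept its call and direction in all 13 alternative settings, and UBXN1 likewise. TUG1 lost its call only under limma on log2(TPM + 1) (adjusted p = 0.0503), and PVT1 there (adjusted p = 0.0518) and without shUBXN1 replicate 1.

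MALAT1 passed the threshold under DESeq2 (adjusted p = 0.0295), total count scaling (0.0174), no filter on low counts (0.0465) and with the GC trend removed (0.0207), and NORAD under DESeq2 (0.035) and no filter (0.0483). With no filter, NEAT1 (6.37e-06), KCNQ1OT1 (4.3e-04) and OIP5-AS1 (0.00291) passed as well. KCNQ1OT1 also passed with at least 10 counts in every library (0.0376), and OIP5-AS1 under limma-voom (0.036).

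Of the 10 genes, the number called higher, 2 in the edgeR test, was 1 under limma on log2(TPM + 1), 5 with no filter on low counts and 4 with the replicate block. The number called lower, 1, was 2 under DESeq2, 0 under limma on log2(TPM + 1), 3 with no filter and 2 with the block. With each library left out, 1 to 4 were higher and 1 to 3 lower, and 0 to 1 passed a fold change of 2 upwards. Leaving 1 library in a group assumes that it varies like the others.

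Leaving out each library gave -0.86 to 0.0067 for NEAT1 (above 0 without shUBXN1 replicate 2), -0.12 to 0.76 for KCNQ1OT1 (below 0 without shUBXN1 replicate 1), -0.0069 to 1.57 for OIP5-AS1 and -0.17 to 0.62 for HULC (both below 0 without shCon replicate 1). At a fold change of 2, 1028 genes rose and 524 fell under limma on log2(TPM + 1), and a filter of 10 counts in every library left 1321 higher, against 1997 and 1027.

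Among the lists, MALAT1 end processing genes called lower were 7 under total count scaling, and nuclear speckle genes called higher were 4. Partner genes at the imprinted loci called lower were 2 with the GC trend removed. Other cancer lncRNA genes called higher were 0 under DESeq2 and limma-voom, 2 under total count scaling and limma on log2(TPM + 1), and 3 with at least 10 counts in every library and with the replicate block. Leaving out each library gave 7 to 11 lower MALAT1 end processing genes, 1 to 3 higher NORAD and OIP5-AS1 partners, 1 to 2 higher nuclear speckle genes and 1 to 2 higher other cancer lncRNA genes. The causes were not tested.

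Replicate numbers in the labels are shared by the groups, but nothing says that they mark a shared day or batch, and the deviations of same-numbered libraries correlated with r = 0.039 over genes, which are not independent. With the replicate block, NEAT1 (-0.41, adjusted p = 2.21e-05), KCNQ1OT1 (0.35, adjusted p = 0.00194) and OIP5-AS1 (0.71, adjusted p = 0.00114) also passed the threshold.

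Only 2 libraries per group, few counts for HULC and MEG3, and unknown division of reads between overlapping genes limit these values.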

Other observations

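Further lncRNA genes of the cancer list are given here, chosen after their values were seen. DANCR, LUCAT1, MIR31HG and CASC15 were lower in both shUBXN1 libraries, against 38.6% of all genes tested. DANCR, an RNA of undifferentiated cells, had 37.9 and 41.4 CPM in shCon and 18.6 and 21.0 CPM in shUBXN1 (log2 fold change -1.001, adjusted p = 9.23e-07). LUCAT1 had 41.9 and 38.1 CPM in shCon and 31.4 and 26.3 CPM in shUBXN1 (log2 fold change -0.47, adjusted p = 0.00104). MIR31HG, the host gene of miR-31, had 3.90 and 3.75 CPM in shCon and 2.10 and 1.62 CPM in shUBXN1 (log2 fold change -1.03, adjusted p = 0.0056), and CASC15 had 4.95 and 4.77 CPM against 2.91 and 2.31 CPM (log2 fold change -0.90, adjusted p = 0.00568). GAS5 (66.7 and 67.1 CPM in shCon, 64.3 and 53.8 CPM in shUBXN1) and ZFAS1 (69.4 and 73.7 CPM in shCon, 80.6 and 80.4 CPM in shUBXN1), which host small nucleolar RNAs, did not pass the edgeR test (adjusted p = 0.0957 and 0.0626).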
